A study of Homo sapiens with 3 samples.

Results

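The HOX genes sit in 4 clusters, and the p300/CBP peaks in and around these clusters are described here. A peak was included when its centre lay between the first and the last of the listed HOX genes of a cluster or within 250 kb on either side, which was applied to 38 genes. This gave 78 of the 82901 peaks in cells given a control siRNA (siCTL) and 34 of the 39320 peaks in cells given siRNAs against Fra-1 (siFra-1). By locus the siCTL and siFra-1 numbers were 10 and 4 at HOXA, 45 and 21 at HOXB, 13 and 7 at HOXC, and 10 and 2 at HOXD. The cells were MDA-MB-231, an established human cell line derived from a triple-negative breast cancer. They received 4.5 nM of the control siRNA or of a mix of 3 siRNAs against Fra-1, the AP-1 family protein encoded by FOSL1, and were fixed 72 h later. Each condition is 1 library, made from replicate immunoprecipitations that were combined beforehand, so no difference between siCTL and siFra-1 can be set against a spread between replicates, and all intervals given are 95% intervals of counting error only. The lists give positions and no peak heights, do not measure how far Fra-1 was depleted, and say nothing of HOX expression.

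HOX genes encode homeodomain transcription factors that give cells their position along the body axis of the embryo, and within a cluster the genes lie in the order in which they are used from head to tail. All genes of a cluster are transcribed in the same direction, so each cluster has a side of low-numbered genes, called the HOX1 side below, and a side of high-numbered genes, called the HOX13 side. Enhancers of HOX genes lie both between the genes and far outside the clusters, Polycomb and trithorax proteins keep the clusters off or on, and the HOX proteins bind DNA with the TALE partners PBX and MEIS. p300 and CBP are acetyltransferases that are recruited to enhancers and promoters by transcription factors, AP-1 among them. The question put to these loci was how p300/CBP occupancy differed between the clusters and between the conditions.

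On hg19, the cluster HOXA runs over chr7:27139973-27239710 (99.7 kb, minus strand), HOXB over chr17:46605888-46806112 (200 kb, minus strand), HOXC over chr12:54332615-54449814 (117 kb, plus strand) and HOXD over chr2:176957449-177055635 (98.2 kb, plus strand). The peaks on which the comparisons below turn have the following sequences, taken from the plus strand of GRCh37. The first set is from the region between SKAP1 and HOXB1, where all peaks of 250 bp and over were found. Capitals mark the AP-1 consensus, TGAGTCA or TGACTCA, in the first sequence, and the RUNX consensus TGTGGT, read here on the other strand, in the second, which is the central 200 bp of the widest siCTL peak.
siCTL, chr17:46550502-46550751: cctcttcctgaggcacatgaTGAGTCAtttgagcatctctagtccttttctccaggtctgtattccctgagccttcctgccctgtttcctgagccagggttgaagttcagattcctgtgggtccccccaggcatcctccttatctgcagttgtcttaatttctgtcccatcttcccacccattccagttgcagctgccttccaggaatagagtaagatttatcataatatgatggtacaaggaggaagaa
siCTL, chr17:46560952-46561151: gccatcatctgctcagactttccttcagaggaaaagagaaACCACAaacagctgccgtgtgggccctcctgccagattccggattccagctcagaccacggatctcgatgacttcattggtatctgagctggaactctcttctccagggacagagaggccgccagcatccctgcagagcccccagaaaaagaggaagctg
Of 3 peaks with an AP-1 consensus that the siFra-1 list held and the siCTL list did not overlap, 2 are shown next, first 1 from the HOX1 side of HOXB, 25.0 kb from HOXB1, and then 1 beside GIP on its HOX13 side.
siFra-1, chr17:46583352-46583451: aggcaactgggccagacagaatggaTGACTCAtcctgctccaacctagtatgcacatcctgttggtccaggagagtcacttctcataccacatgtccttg
siFra-1, chr17:47049852-47049951: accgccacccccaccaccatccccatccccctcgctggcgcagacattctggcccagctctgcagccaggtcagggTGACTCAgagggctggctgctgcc
The next set is from promoter windows of HOX genes, in the order HOXB5, HOXB9 and HOXC9, with CG dinucleotides in capitals.
siCTL, chr17:46670552-46670701: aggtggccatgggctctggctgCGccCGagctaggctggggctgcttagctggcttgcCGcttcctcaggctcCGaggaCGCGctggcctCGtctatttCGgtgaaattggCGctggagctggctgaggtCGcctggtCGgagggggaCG
siCTL, chr17:46704552-46704651: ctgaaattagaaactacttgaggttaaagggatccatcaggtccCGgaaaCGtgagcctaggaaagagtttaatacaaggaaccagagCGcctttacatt
siFra-1, chr12:54389402-54389501: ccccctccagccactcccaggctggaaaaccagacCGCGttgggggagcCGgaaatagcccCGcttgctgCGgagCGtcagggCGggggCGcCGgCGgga
The last set holds the 1 peak found within the HOXA cluster and the siCTL peak nearest to a start site of the HOXD cluster, 1.77 kb from that of HOXD8, again with CG in capitals.
siFra-1, chr7:27229952-27230051: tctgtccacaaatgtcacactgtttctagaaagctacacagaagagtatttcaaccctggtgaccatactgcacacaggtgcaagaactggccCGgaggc
siCTL, chr2:176992602-176992701: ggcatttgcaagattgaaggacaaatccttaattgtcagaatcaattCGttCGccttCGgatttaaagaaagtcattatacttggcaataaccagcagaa
The HOXB5 peak, which lies in an exon, had 12 CG dinucleotides in 150 bp at a GC content of 67.3%, and the HOXC9 peak had 10 in 100 bp at 73%. The HOXB9 peak had 3, the HOXD8 peak 3 and the HOXA peak 1.

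**Figure D1:**
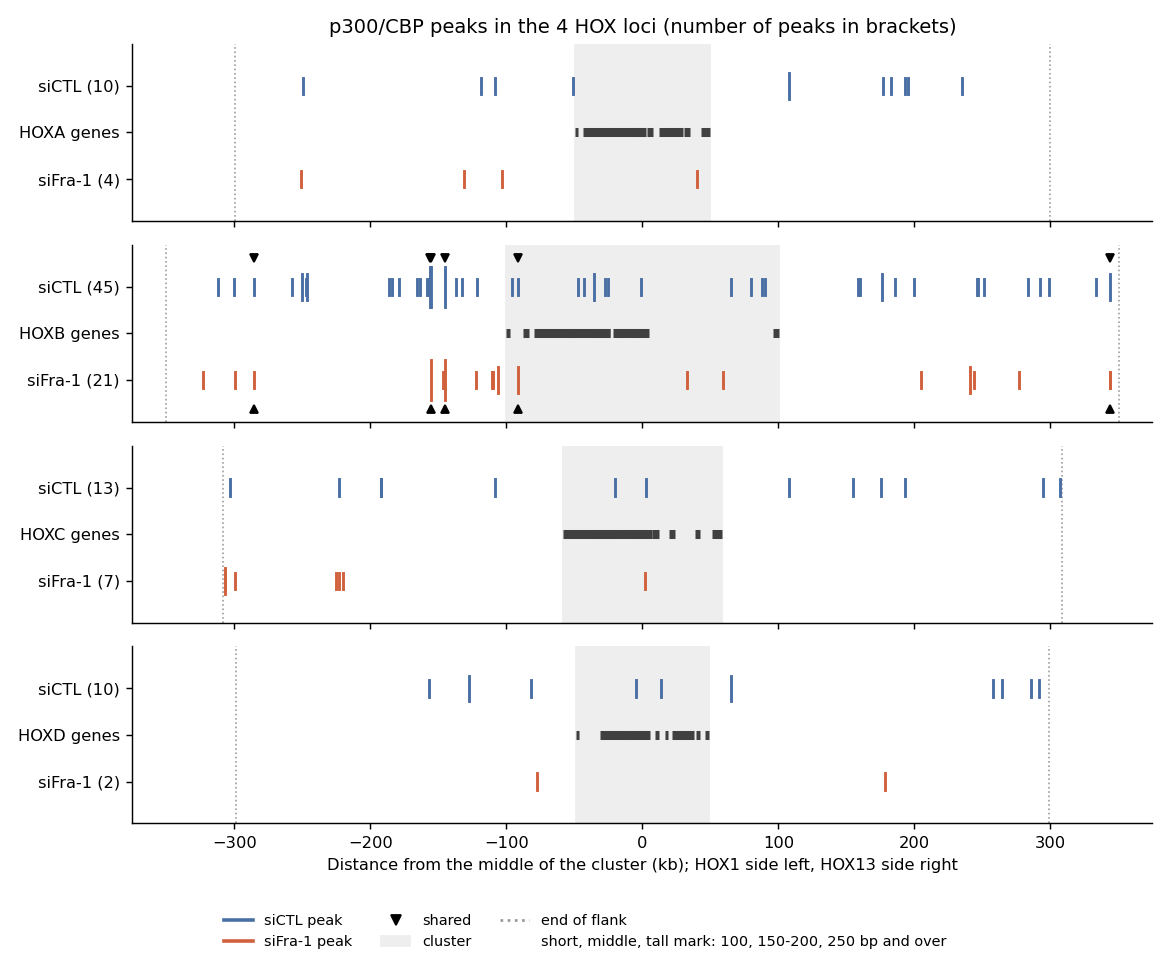
Positions of all peaks in the 4 HOX loci, in kb from the middle of each cluster, with the HOX1 side on the left; gray bands are the clusters, dark bars the HOX genes, upper marks siCTL peaks and lower marks siFra-1 peaks, with height by width class and triangles on shared peaks. HOXB holds 45 siCTL and 21 siFra-1 peaks, all shared peaks and all peaks of 250 bp and over, and the cluster HOXA holds 1 peak.

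HOXB was the locus richest in p300/CBP peaks in both conditions. It held 64.3 siCTL peaks per Mb (46.9 to 86.0) and 30.0 siFra-1 peaks per Mb (18.6 to 45.8). HOXC held 21.1 and 11.3 per Mb, HOXA 16.7 and 6.67, and HOXD 16.7 and 3.34. HOXB exceeded each of the other loci beyond counting error. In siCTL its density was 3.05 times that of HOXC (1.62 to 6.16), 3.84 times that of HOXD (1.91 to 8.56) and 3.85 times that of HOXA (1.91 to 8.58). In siFra-1 the ratios were 2.64 (1.08 to 7.36), 8.97 (2.19 to 78.9) and 4.50 (1.52 to 18.0). The intervals of the ratios among HOXA, HOXC and HOXD all contained 1, so their order was not resolved.

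The chromosomal surroundings of HOXB were likewise denser in peaks than those of the other loci. In the rest of the genome, taken as chromosomes 1 to 22 and X, there were 29.2 siCTL and 13.8 siFra-1 peaks per Mb, against which HOXB was 2.20 times (1.61 to 2.95) and 2.17 times (1.34 to 3.32) as dense. The 5 Mb on each side of the HOXB locus held 55.0 siCTL and 25.5 siFra-1 peaks per Mb, and against these the ratios were 1.17 (0.842 to 1.58) and 1.18 (0.716 to 1.84). HOXA, HOXC and HOXD together were less dense than the rest of the genome, at 0.623 times in siCTL (0.429 to 0.875) and 0.519 times in siFra-1 (0.276 to 0.887). The 5 Mb on each side of these held 18.5, 22.2 and 20.8 siCTL peaks per Mb, and the ratios of the loci to them were 0.901, 0.949 and 0.804, with 1 in each interval. In siFra-1, HOXD had the lowest ratio to its 5 Mb surroundings, 0.389 (0.0463 to 1.45). All intervals of these ratios to the surroundings, in both lists, contained 1. The setting against surroundings was added after the lists had been seen. The loci were alike in gene density, with 27.1 protein-coding start sites per Mb at HOXB, 25.9 at HOXC, 23.3 at HOXA and 20.1 at HOXD, beside 7.09 in the genome.

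**Figure D2:**
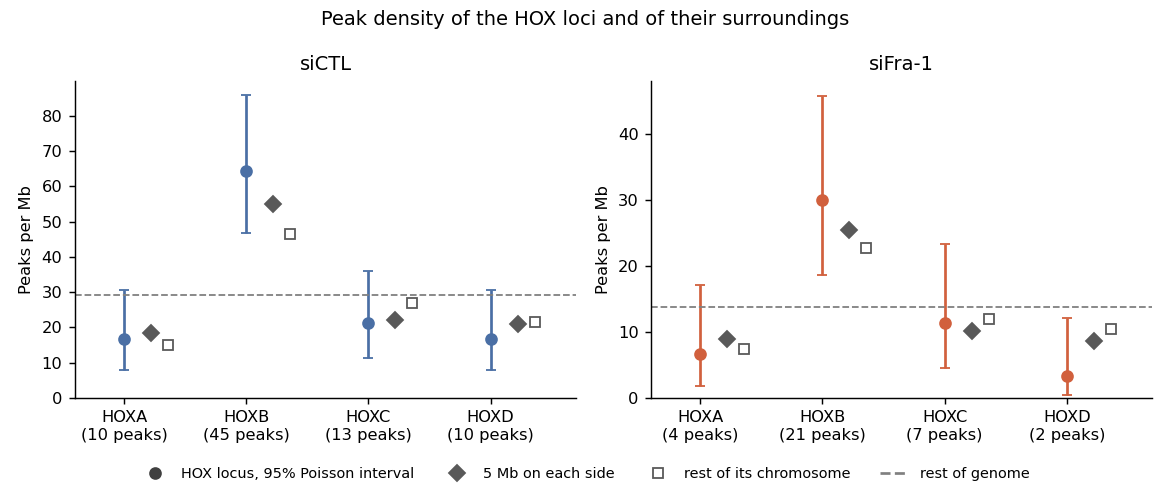
Peaks per Mb in each HOX locus (circles, with 95% Poisson intervals), in the 5 Mb on each side of it (diamonds), in the rest of its chromosome (squares) and in the rest of the genome (dashed line), for siCTL on the left and siFra-1 on the right. HOXB stands at 64.3 and 30.0 peaks per Mb, above the other loci, and so do its surroundings at 55.0 and 25.5.

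Fewer peaks were listed after Fra-1 depletion at every locus, as in the genome as a whole. The 4 loci together had 0.436 times as many siFra-1 as siCTL peaks (0.282 to 0.660), beside 0.474 in the rest of the genome. siFra-1 peaks made up 30.4% of the peaks of both lists at the loci and 32.2% elsewhere, a difference of -1.82 percentage points (-9.57 to 7.24). The ratio was 0.400 at HOXA (0.0916 to 1.39), 0.467 at HOXB (0.264 to 0.800), 0.538 at HOXC (0.182 to 1.45) and 0.200 at HOXD (0.0213 to 0.939). HOXD had the lowest value, with 2 siFra-1 peaks for 10 siCTL peaks, and its siFra-1 share of 16.7% differed from that of the rest of the genome by -15.5 points (-27.5 to 12.6). No locus therefore differed from the genome-wide change in peak number beyond counting error. Whether the change itself came from occupancy or from how signal in the libraries was scaled cannot be told apart with 1 library per condition.

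Most peaks had the smallest width, 100 bp. This held for 67 of 78 siCTL peaks (85.9%) and 28 of 34 siFra-1 peaks (82.4%), beside 83.4% and 69.9% in the rest of the genome. At HOXA 1 of 10 siCTL peaks was wider, at 150 bp, and none of the 4 siFra-1 peaks. At HOXC 1 siFra-1 peak of 150 bp was found, in an intron of COPZ1, which encodes a coatomer subunit, and all 13 siCTL peaks measured 100 bp. At HOXD 2 of 10 siCTL peaks reached 150 bp, and both siFra-1 peaks measured 100 bp. Of the 150 bp peaks at HOXD, 1 lay 7.11 kb from the start site of the homeobox gene EVX2. The other lay 0.254 kb from that of MTX2, which encodes a mitochondrial protein. HOXB had 8 siCTL and 5 siFra-1 peaks of 150 bp and over, and 3 and 2 of 250 bp and over. All peaks of 250 bp and over lay on the HOX1 side of HOXB. The widest siCTL peaks without a partner in the other list measured 150 bp and were found at HOXA, HOXB and HOXD, the first at HOXB lying in an intron of SKAP1 at 152 kb from HOXB1. Of the siFra-1 peaks without a partner, the widest measured 200 bp and were at HOXB, the first of them 8.57 kb from HOXB1. At HOXA the 150 bp siCTL peak lay 15.3 kb from the start site of EVX1, and the first of the 4 siFra-1 peaks along the genome lay in an intron of SKAP2. The first siCTL peak of the HOXC locus along the genome lay 13.1 kb from the start site of ATP5MC2, which encodes a subunit of ATP synthase.

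The widest peaks lay in the 98.2 kb between the start site of SKAP1, which encodes an adaptor protein of T cells, and HOXB1. A peak of 1000 bp, chr17:46560552-46561551, had the same start and end in both lists and lay 47.3 kb from the HOXB1 start site. Of the 33 siCTL peaks of 1000 bp and over in the genome, 2 recurred with equal coordinates in the siFra-1 list, and of the 3655 of 250 bp and over, 145 did (3.97%). At 58.0 kb from HOXB1, a siFra-1 peak of 1000 bp, chr17:46549852-46550851, covered 2 siCTL peaks of 550 and 250 bp, chr17:46549902-46550451 and chr17:46550502-46550751. The AP-1 consensus printed above for the second of these, at 46550522 to 46550528, lay outside the central 200 bp of that siCTL peak and of the siFra-1 peak. Neither peak is therefore among those counted below with the consensus in the central 200 bp. All words of 24 bases in the 1000 bp peak common to the lists and in the 550 and 250 bp siCTL peaks occurred once in the genome, as did 95.9% of those in the siFra-1 peak.

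The small peaks of the interval lay at different places in the lists. siCTL peaks of 100 bp were found 39.7, 35.4 and 24 kb from the HOXB1 start site. siFra-1 peaks were found 25.0, 13.2, 12.3 and 8.57 kb from it, the last 200 bp wide, and 3 more of 100 bp lay 48.8, 48.6 and 47.9 kb from it, just beyond the common peak. On the SKAP1 side of the wide peaks, 7 siCTL peaks of 100 bp lay 59.3 to 89.1 kb from HOXB1 and no siFra-1 peak was listed. Of these, the peaks 86.7 and 61.1 kb from HOXB1 had 89.6% and 81.8% of their words of 24 bases at least 10 times in the genome. The others had at most 39%. Among the 3 siFra-1 peaks beyond the common peak, those 48.8 and 48.6 kb away had 42.9% and 46.8% of such words, and the one 47.9 kb away had 0%. In all the interval held 13 siCTL peaks and 9 in siFra-1, at a ratio of 0.692 (0.261 to 1.75), which covered 2800 bp in each list.

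**Figure D3:**
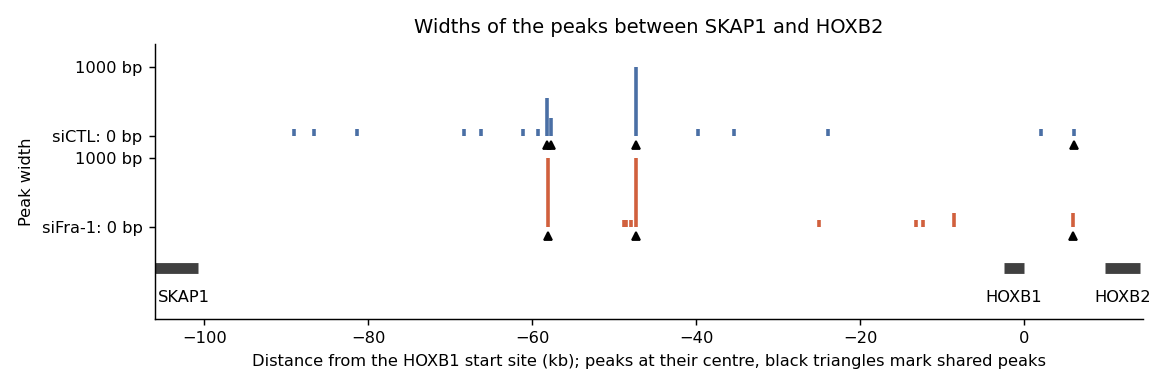
Widths of the peaks between SKAP1 and HOXB2 (height of each bar, in bp) at their distance in kb from the HOXB1 start site, siCTL above and siFra-1 below, with triangles under shared peaks. The peak of 1000 bp 47.3 kb from HOXB1 is common to both lists, and the 4 siFra-1 peaks 8.57 to 25.0 kb from HOXB1 have no siCTL peak on them.

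Peaks sharing at least 1 bp with the other list were called shared. Among the siCTL peaks 6 of 78 were shared (7.69%, 3.57 to 15.8), where all siCTL peaks gave 9.56%. Among the siFra-1 peaks 5 of 34 were shared (14.7%, 6.45 to 30.1), where all siFra-1 peaks gave 19.1%. Moving the other list by 10 kb either way left 1 and 3 shared siCTL peaks and 3 and 1 shared siFra-1 peaks. Over all peaks the moved lists gave 1.16% and 1.31% in siCTL and 2.70% and 2.37% in siFra-1, below the intervals of the sharing seen at the HOX loci. At the loci themselves the moved lists gave 1.28% and 3.85% in siCTL and 8.82% and 2.94% in siFra-1. The larger value of each list lay within those intervals. However, the wide peaks 47.3 and 58.0 kb from HOXB1 lie apart by about the distance moved. Some of the moved overlaps at the loci were of peaks at one of these places with peaks at the other. The moved lists at the loci therefore cannot decide whether sharing there exceeded that of moved lists. All shared peaks were at HOXB, which had 6 of 45 (13.3%) in siCTL and 5 of 21 (23.8%) in siFra-1. HOXA, HOXC and HOXD had 0 of 33 in siCTL, which allows a share of up to 9.09%, or up to 10.4% by the Wilson interval. Their difference from the rest of the genome was -9.56 points (-9.76 to 0.868), within counting error. In siFra-1 they had 0 of 13, which allows up to 23.1%, above that of all siFra-1 peaks. Beside the wide peaks, the shared peaks were a pair of 100 bp with equal coordinates in an intron of SKAP1, 186 kb from the cluster, the pair between HOXB1 and HOXB2, which had 50 bp in common, and a pair 244 kb from the cluster near GIP, which encodes an incretin hormone. Near GIP a siCTL peak of 150 bp, chr17:47049702-47049851, faced a siFra-1 peak of 100 bp with the same start and a second, unshared siFra-1 peak beginning 1 bp after its end, whose AP-1 consensus is shown above.

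Within the clusters themselves, p300/CBP peaks were few after Fra-1 depletion. The 4 clusters held 16 siCTL peaks and 5 in siFra-1, at a ratio of 0.312 (0.0895 to 0.893), and the 8 flanks held 62 and 29, a ratio of 0.468 (0.290 to 0.738). The intervals of these ratios overlapped widely and each contained the value of the rest of the genome. Per Mb, clusters and flanks had the same siCTL density, 31.0, with a ratio of 1.00 (0.539 to 1.76), and in siFra-1 the ratio was 0.669 (0.202 to 1.75). The siCTL and siFra-1 numbers were 0 and 1 in the HOXA cluster, 12 and 3 in HOXB, 2 and 1 in HOXC, and 2 and 0 in HOXD.

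In the HOXB cluster, 6 of the 12 siCTL peaks and none of the 3 siFra-1 peaks lay in the gene-rich stretch. From HOXB2 to the end of HOXB7, a stretch of 92.7 kb that holds 8 of the HOXB genes, there were 6 siCTL peaks and 0 siFra-1 peaks, with an upper bound of 0.849 on the ratio, so that the 0.474 of the rest of the genome was within counting error. Of the 6, 5 lay in the HOXB3 gene as annotated and also in the antisense RNA HOXB-AS3, 1 of these in an exon of HOXB5 and 2 in introns of HOXB6, and the sixth lay in an intron of HOXB7. HOXB3 overlaps HOXB5 and HOXB6 in the annotation, so a peak there cannot be given to 1 of them. In the gap between HOXB1 and HOXB2, 2 siCTL peaks and 1 siFra-1 peak were found, and in the 91.2 kb from HOXB7 to HOXB13, 4 and 2, all of 100 bp. The siFra-1 peaks in that gap lay in LINC02086, a long noncoding RNA gene, 28.0 kb from the HOXB7 and 41.1 kb from the HOXB13 start site. The siCTL peaks there lay 34.8, 20.6, 11.9 and 10.0 kb from HOXB13. The stretch was singled out after its values were seen.

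In the HOXC cluster, both lists had a peak at the start of HOXC9. The siCTL peak, chr12:54388652-54388751, spanned the start site at 54388679, and the siFra-1 peak, chr12:54389402-54389501, lay 0.772 kb from it, with 0.650 kb between them, so that they were not counted as shared. The second siCTL peak, chr12:54411102-54411201, lay 0.436 kb from the start site of HOXC4 in an untranslated exon that HOXC4 and HOXC6 share. In the HOXD cluster, the siCTL peak chr2:176992602-176992701 lay in an intron of the antisense RNA HOXD-AS2 and chr2:177011452-177011551 in an intron of HOXD3, 4.78 kb from the HOXD4 start site. The HOXD cluster had no siFra-1 peak, and the 2 of the locus lay 30.8 kb from HOXD1 on its HOX1 side and 129 kb from HOXD13, in an intron of LNPK, on its HOX13 side. The HOXA cluster had no siCTL peak, and its siFra-1 peak, chr7:27229952-27230051, lay between HOXA11 and HOXA13, 5.15 kb from the HOXA11 start site. A siCTL peak lay 1.17 kb outside the HOXA cluster, in an exon of HOTAIRM1, a myeloid long noncoding RNA. Apart from this peak and the 5 in HOXB-AS3, the other 9 cluster RNAs examined, HOTAIR and HOTTIP among them, had no peak in either list. Those examined did not include HOXC-AS2, in which both peaks at HOXC9 lie in the annotation, or HOXD-AS2 and LINC02086, named above.

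**Figure D4:**
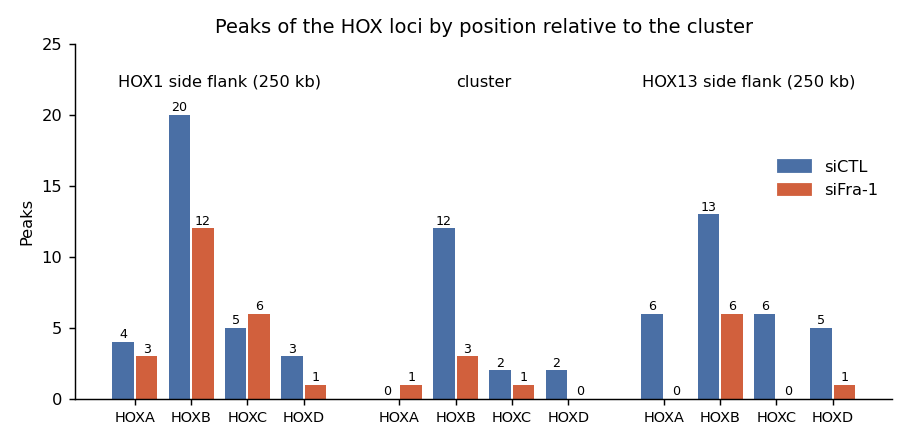
Number of peaks (bars, labeled with their values) in the HOX1-side flank, the cluster and the HOX13-side flank of each locus, siCTL in blue and siFra-1 in orange. Over the 4 loci, siFra-1 peaks number 22 on the HOX1 side and 7 on the HOX13 side, where siCTL peaks number 32 and 30.

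The flanks differed by side. The HOX1 side had 32 peaks in siCTL and 22 in siFra-1, at a ratio of 0.688 (0.381 to 1.22), and on the HOX13 side 30 and 7, a ratio of 0.233 (0.0865 to 0.542), and both intervals contained the 0.474 of the rest of the genome. siFra-1 peaks made up 40.7% of the peaks on the HOX1 side and 18.9% on the HOX13 side, a difference of 21.8 points (2.35 to 38.1). At HOXA the HOX1 side, toward SKAP2, had 4 siCTL and 3 siFra-1 peaks and the HOX13 side, beyond the homeobox gene EVX1, had 6 and 0. At HOXC the HOX1 side, toward the DNA repair gene SMUG1 and the transcription factor gene NFE2, had 5 and 6 and the HOX13 side had 6 and 0. At HOXB the numbers were 20 and 12 against 13 and 6, and at HOXD 3 and 1 against 5 and 1. Without HOXA the difference was 17.8 points (-3.61 to 35.9) and without HOXC 14.6 points (-6.86 to 33.3), so its interval kept clear of 0 only with both loci in. The split by side was looked at after the lists had been seen, and the loci are 4, which is too few to say whether the side matters.

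Around each HOX gene, peaks were counted within 100 kb of its start site. Fewer were listed in siFra-1 than in siCTL for 32 of the 38 HOX genes, and 85.8% of all protein-coding genes with a peak in that window did likewise. HOXA5 alone had more, with 1 siCTL and 2 siFra-1 peaks, where 7.68% of the protein-coding genes had more. The 5 with equal numbers, HOXA2, HOXA3, HOXA6, HOXA7 and HOXA13, were also of the HOXA cluster. Genes of a cluster share most of their peaks, so these counts follow from few peaks and are not independent. The median siCTL and siFra-1 numbers were 10.5 and 7 at HOXB, 3 and 1 at HOXC, 3 and 1 at HOXD and 1.5 and 1 at HOXA, beside 6 and 3 for all protein-coding genes with a peak.

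Along HOXB the numbers were highest toward SKAP1. HOXB1 had 21 siCTL and 10 siFra-1 peaks, and HOXB2, 19 and 10. HOXB4 had 12 and 10. HOXB7 had 11 and 3, HOXB9, 12 and 3, and HOXB13, 9 and 2. From HOXB3 to HOXB13 the siCTL numbers stayed between 9 and 12, and the siFra-1 numbers lay between 2 and 10. Within 10 kb of the start site, HOXB5 had 4 siCTL and 0 siFra-1 peaks, and HOXB1, 2 and 2. All 9 HOXC genes had 1 siFra-1 peak within 100 kb, the peak at HOXC9, and 2 to 4 siCTL peaks. HOXD10, HOXD11, HOXD12 and HOXD13 had 3 siCTL and 0 siFra-1 peaks, and the other HOXD genes had 3 or 4 and 1.

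**Figure D5:**
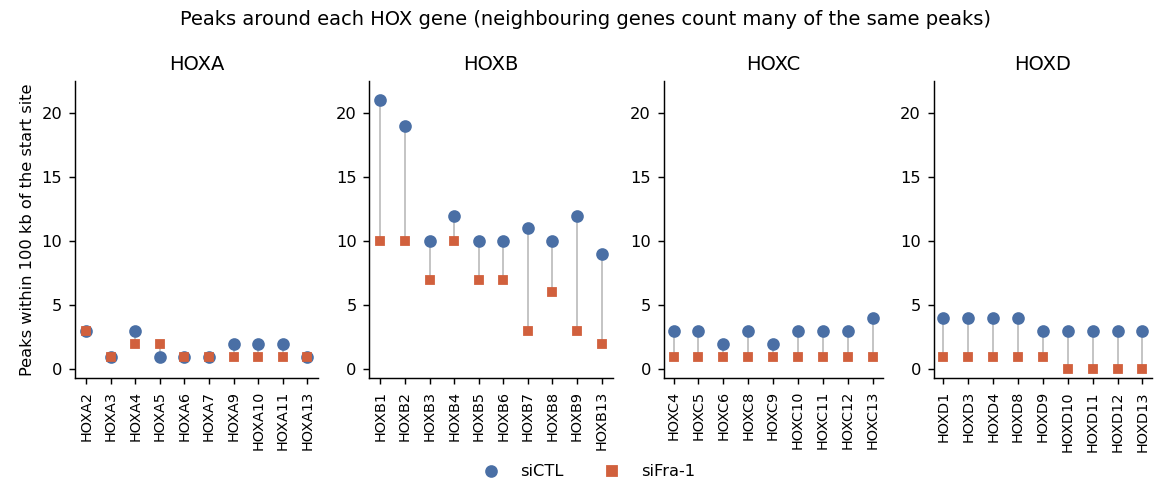
Peaks within 100 kb of the start site of each of the 38 HOX genes, siCTL as blue circles and siFra-1 as orange squares, joined by a line for each gene; neighboring genes count many of the same peaks. HOXB1 has 21 and 10, the HOXC genes have 2 to 4 and 1, and HOXA5 is the gene with more siFra-1 than siCTL peaks.

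Promoters held a larger share of the siCTL peaks here than elsewhere. A window of 3 kb centred on a protein-coding start site held 8 of 78 siCTL peaks (10.3%, 5.29 to 19.0), where all siCTL peaks gave 3.98%, and the difference from the rest of the genome was 6.29 points (1.32 to 15.0). Such windows cover 6.60% of the bases of the loci and 1.93% of the genome. Of the 8 peaks, 5 were at HOXC, at HOXC4, HOXC9 and NFE2 and, with 2 peaks, at SMUG1, and the others were at MTX2, at HOXB5, 0.514 kb from its start site, and at HOXB9, 0.881 kb from its start site. Without the HOXC locus the share was 4.62% (3 of 65). In siFra-1 the peak at HOXC9 was the only one, 1 of 34 (2.94%, 0.521 to 14.9), where all siFra-1 peaks gave 4.84%. Counted by gene, 4 of the 38 HOX promoters (10.5%) held a siCTL peak, beside 16.0% of all protein-coding promoters, and 1 (2.63%) held a siFra-1 peak, beside 9.20%.

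Beside their promoters, the loci had more peaks between genes and fewer in introns than the rest of the genome. In siCTL 47.4% of the peaks lay between genes against 35.5% elsewhere, a difference of 11.9 points (1.19 to 22.8), and 41.0% in introns against 56.9%. In siFra-1 58.8% lay between genes against 38.4%, a difference of 20.5 points (3.85 to 35.3), and 35.3% in introns against 54.0%. Of the bases of the loci 37.7% lie between genes, about as in the genome with 37.8%, and 50.9% in introns, against 56.7% in the genome. The 200 bp at the peak centers had a median GC content of 51.8% in the clusters and 46.0% in the flanks in siCTL, beside 44% in the rest of the genome, and 48.5% in both in siFra-1, beside 45.0%.

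An AP-1 consensus within the central 200 bp was found in 3 of 78 siCTL peaks (3.85%, 1.32 to 10.7), where all siCTL peaks gave 6.15%. It was found in 4 of 34 siFra-1 peaks (11.8%, 4.67 to 26.6), where all siFra-1 peaks gave 9.08%. Windows moved by 2 kb held it at 3.21% and 4.41%. All peaks with the consensus were at HOXB, 3 of 45 and 4 of 21, and HOXA, HOXC and HOXD had 0 of 33 and 0 of 13. Among the siCTL peaks were a peak in an exon of UBE2Z and the peak near GIP, whose consensus straddled the end of the peak. Other consensus sequences, matched on both strands, gave shares whose intervals overlapped the genome-wide share. TEAD (GGAATG) was found in 7 siCTL and 4 siFra-1 peaks, RUNX (TGTGGT) in 11 and 6, C/EBP (TTGCNNAA) in 10 and 4, HOX-PBX (TGATTNAT) in 3 and 2 and CRE (TGACGTCA) in none. A match is a run of letters and not a bound site.

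Some peaks lay in sequence with many copies, where reads are hard to place. A peak was called repeated when most of its words of 24 bases occurred at least 10 times in the genome. Of the siCTL peaks 11 of 78 were repeated (14.1%, 8.06 to 23.5), and of the siFra-1 peaks 6 of 34 (17.6%, 8.35 to 33.5), beside 16.0% and 13.2% of windows moved by 2 kb. Both siFra-1 peaks of the HOXD locus were repeated, with a median of 2500 and 221 copies per word, and so were 2 of its 10 siCTL peaks. Of the peaks with an AP-1 consensus in the central 200 bp, 1 of 3 in siCTL and 1 of 4 in siFra-1 were repeated. These were the pair between HOXB1 and HOXB2, the only shared pair within a cluster. In it 72.7% of the words of the siCTL peak and 52% of those of the siFra-1 peak occurred at least 10 times. The AP-1 peaks printed above, the peaks at HOXC9, the HOXA peak and the HOXB3 to HOXB7 peaks were not called repeated. What part such placement had in the lists was not tested. This count was added after the sequences had been seen.

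Genes that act with or on HOX genes were counted in the same way, from lists drawn up with the HOX genes, as a description. Of the TALE partners 9 of 9 had fewer peaks within 100 kb in siFra-1 than in siCTL, led by MEIS3 with 15 and 3 and PBX2 with 13 and 5. Of the list of Polycomb genes, which also holds the histone demethylase KDM6B with 12 and 6, 11 of 12 had fewer, and SUZ12 had 1 in each list. The most siCTL peaks were at EZH1, a histone methyltransferase, with 15 and 5. EED, a subunit of the same complex, followed with 14 and 2, level in siCTL with CBX7, which had 14 and 11. Of the trithorax genes 4 of 6 had fewer, with 19 and 7 at MEN1 and 6 and 4 at KMT2A, KDM6A had no peak and KMT2D had 2 and 4. Of the CDX and EVX homeobox genes 4 of 5 had fewer, with 7 and 5 at CDX1, and CDX4 had none. EVX1 had 3 and 1, which are also peaks of the HOXA locus, and EVX2 had 3 and 0, which are also peaks of the HOXD locus. Lists of 5 to 12 genes are too short to be set apart from the 85.8% of all protein-coding genes with a peak.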

How the data were processed

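The authors aligned the p300/CBP reads to hg19 with BWA-backtrack according to their methods, while the processing notes with the labels name Bowtie2. With PASHA, an R package, the signal was binned by 50 bp, scaled and cleared of background, and the authors called peaks in the Integrated Genome Browser at a threshold of 25, the same in both conditions. A parameter named with the lists, of unstated meaning, was larger for siFra-1. The deposited lists give no read counts or heights, only the start and end of each peak. They were read as BED, with starts raised by 1 for printing. Read depth is unknown. The input sample was not analysed here, and the sequences of some peaks are not reported here.

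The gene models were those of GENCODE 44, lifted to GRCh37 (20163 protein-coding, 64486 in all), in which all 38 HOX genes matched. Overlap, densities and motifs were computed with Python 3.11.15, numpy 2.4.6, scipy 1.17.1 and pysam 0.24.0, and plotted with matplotlib 3.10.9. They were tested on simulated data, where all planted overlaps and motifs were found, and overlaps equaled those of bedtools 2.31.1 both there and on the deposited lists. A peak's centre decided whether it counted as exonic, intronic or between genes, with all annotated genes used. Shares have Wilson, differences Newcombe, count ratios Clopper-Pearson and densities exact Poisson intervals, at 95%. These cover counting error only, and neighboring peaks are not independent. A share of 0 was given the limit that 3 counts allow. With 1 library per condition there is no test and no p-value.

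The members and lists were chosen with earlier results of these data known. Named were HOX genes with a peak in the gene or promoter, the widest peaks per locus (ties by genome order) with their nearest gene, and the genes with most peaks in each partner list. Other neighboring genes were named after their positions were seen. Alternatives were minimum widths of 150 and 250 bp, merging within 500 bp, flanks of 100 and 500 kb, leaving out each locus, an overlap of 50% or a distance of 200 bp, promoter windows of 1 and 5 kb or all genes, motifs in the whole peak, in 400 bp or as TGANTCA, and gene windows of 50 and 250 kb. The chromosomal surroundings and the split by side were added after the data were seen.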

Additional observations from a re-analysis of the deposited data

How the results depend on the processing

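Of 19 results recomputed under 149 alternatives, 116 values stayed within the interval of the reported value, or within 1.5 times for the gene count, and 33 moved out of it; the cause was not tested except where the alternative leaves few peaks. Narrow peaks carry most results. At a minimum of 150 bp the siFra-1 to siCTL ratio was 0 at HOXA and 0 at HOXD, the shared shares were 27.3% and 33.3%, the siCTL ratio of cluster to flank density was 0.388, the siFra-1 density relative to the genome was 0.576, the siFra-1 promoter share was 0% and 14 HOX genes had fewer siFra-1 peaks. At 250 bp, with 3 siCTL and 2 siFra-1 peaks left, the peak ratio was 0.667, shared shares 100% and 100%, cluster to flank ratios 0 and 0, the siFra-1 density 0.378, promoter shares 0% and 0%, AP-1 shares 0% and 0%, and the gene count 2. Ratios at HOXA, HOXC and HOXD could then not be computed, nor at HOXC at 150 bp. Without HOXB the shared shares and the AP-1 shares were 0% in both lists and the densities relative to the genome were 0.623 and 0.519, against 1.06 and 0.979 with it, so the siCTL ratio passed from above to below 1. The siFra-1 ratio, whose interval contained 1, was 1.13 without HOXA, 1.03 without HOXC and 1.21 without HOXD. Without HOXC the promoter shares were 4.62% and 0%, and with promoter windows of 1 kb the siFra-1 share was 0%. Set against the rest of chromosome 17, HOXB was 1.38 times as dense in siCTL and 1.32 in siFra-1, and against 5 Mb on each side 1.17 and 1.18 times. The difference in siFra-1 share between the flanks was 39.9 points without HOXB. No paired analysis was possible because each condition is 1 library. Depth is unknown, and with 2 to 45 peaks per list and locus only large differences could be seen.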
